A study of Tuber borchii with 4 samples.

Results

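The comparison concerned *Tuber borchii* SP1 mycelium grown in potato dextrose broth (PDB) against the same isolate grown in the 2 woody-plant media, WPG and WPGY. *T. borchii* is the bianchetto truffle, and SP1 is 1 isolate taken from the inner tissue of a single fruiting body. PDB held 20 g/L of potato dextrose broth, WPG was woody plant medium with 20 g/L glucose, and WPGY was WPG with 5 g/L yeast extract added. All cultures were submerged, static and dark at 22 °C. PDB mycelium was harvested on day 85 and both woody-plant cultures on day 65, so medium and culture age cannot be told apart. The series holds 4 libraries, 1 per medium, and 3 of them entered the comparison. The remaining library, MPY (maltose at 35 g/L, with peptone and yeast extract at 5 g/L each), was harvested on day 85 like PDB, and its values are given beside some results. All 12346 gene models of the reference genome were members of the comparison, and each is named by its locus tag, which ends in the protein ID of the deposited tables. With 1 library per medium there was no replicate, no SD and no p-value.

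Ectomycorrhizal truffles live in exchange with tree roots, and their free mycelium grows slowly on sugar media. Potato dextrose broth is a complex medium made from potato extract and glucose, while woody plant medium is a defined mineral and vitamin mix. Genes that commonly differ between fungal media include those for nutrient uptake, carbon and nitrogen metabolism, secondary metabolism and protein folding. Most of the models with the widest differences here carry no function in the sources used, and these are given by locus tag and position on the Tubbor1 assembly.

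The counts summed to 157335190 in PDB, 116376579 in WPG and 125457058 in WPGY, and every value was scaled to 1000000 counts per library (CPM). CPM is not divided by model length, so levels and ranks compare counts between models and not numbers of transcripts. At 10 CPM a model rested on 1573 counts in PDB, 1164 in WPG and 1255 in WPGY, for which 2 SD of counting noise came to 5.04%, 5.86% and 5.65%. Depth therefore did not limit the differences of models above that level, although culture-to-culture spread was not measured. WPG and WPGY lay very close to each other: the chi-square per model between them was 12.9, against 3452 between PDB and WPG and 3490 between PDB and WPGY. A value of 1 would be counting noise alone, and the source of the excess between WPG and WPGY was not tested. They are 2 media and not replicates, and the second adds little independent check on the first. Model B9Z19DRAFT_1060281 was annotated both as eIF-5A and as its relative, the major protein of the Woronin body, a septal plug found in filamentous ascomycetes. It had 3919 CPM in PDB (rank 6), 2897 CPM in WPG (rank 20) and 2826 CPM in WPGY (rank 19). As eIF-5A is a translation factor of every cell, this level does not tell mycelium from other tissue.

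A model was tested when it reached 1 CPM in at least 1 of the 3 libraries, which 8737 of the 12346 models did. It was called higher or lower in PDB when log2(CPM + 1) differed by more than 1, or 2-fold, in the same direction from WPG and from WPGY. The added 1 CPM shrinks the differences of models at low levels. By this rule 623 models were higher in PDB (7.13% of those tested) and 899 were lower (10.3%), together 17.4%, and 7215 were not called. Against WPG alone the counts were 666 higher and 996 lower, and against WPGY alone 660 higher and 949 lower. No model was 2-fold higher against one woody-plant medium and 2-fold lower against the other. Among called models the gap between WPGY and WPG had a median of 0.05 and a maximum of 0.44 on the log2 scale, while the smaller of the PDB differences had a median of 1.49 for the higher and 1.42 for the lower models. In RNA from whole mycelium, fewer cells of a type and less RNA per cell cannot be told apart.

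**Figure D1:**
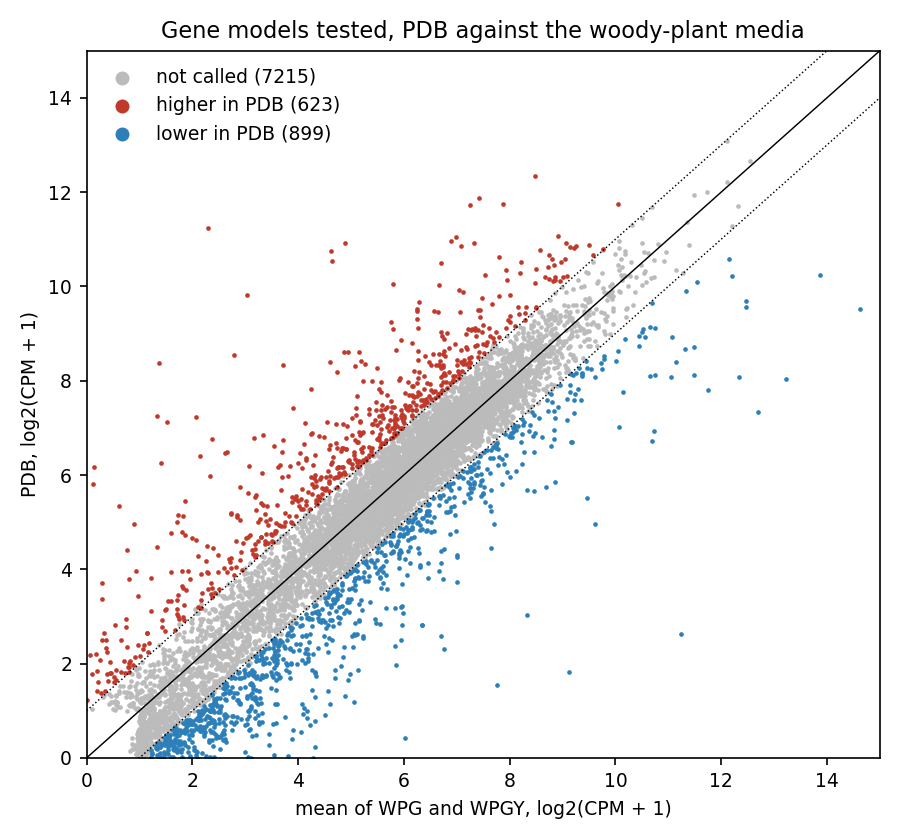
Level of each tested gene model in PDB (vertical axis) against the mean of WPG and WPGY (horizontal axis), both as log2(CPM + 1). Red points are the 623 models called higher in PDB, blue points the 899 called lower and grey points the 7215 not called, the solid line marks equal levels and the dotted lines a 2-fold difference.

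The models higher in PDB more often reached a high CPM than those lower in PDB. Of the 623 higher models, 327 reached 100 CPM in a library and 71 stayed under 10 CPM in all 3. Of the 899 lower models, 206 reached 100 CPM and 342 stayed under 10 CPM. Among the 153 tested models that reached 1000 CPM, 30.7% were called higher and 23.5% lower, whereas among the 1651 that reached 1 but not 10 CPM, 4.30% were higher and 20.7% lower. The higher models took 17.9% of all counts in PDB (95% Wilson interval 17.86 to 17.88), against 4.60% in WPG and 4.63% in WPGY. The lower models took 3.98% of the counts in PDB, against 19.8% in WPG and 19.6% in WPGY. In MPY the shares were 10.98% for the higher and 8.21% for the lower models, between those of PDB and of the woody-plant media in both cases. The models were called on the PDB, WPG and WPGY values, and the level a model reached is its highest among the same 3 libraries. The counts by level and the shares are therefore only a description. Intervals here cover counting error only.

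At the limit itself, model B9Z19DRAFT_101545 was just inside, with 114 CPM in PDB, against 56.3 in WPG and 55.5 in WPGY, and model B9Z19DRAFT_1000018 just outside, with 75.4 CPM in PDB, against 35.7 in WPG and 37.2 in WPGY. On the lower side model B9Z19DRAFT_1095988 was just inside, with 343 CPM in PDB, against 696 in WPG and 689 in WPGY, and model B9Z19DRAFT_1077138 just outside, with 40.5 CPM in PDB, against 83.8 in WPG and 82.0 in WPGY. At a 4-fold limit, 159 models remained higher (1.82%) and 178 lower (2.04%), or 3.86% together.

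The widest difference in favour of PDB was that of model B9Z19DRAFT_1126885 (sequence 121, positions 179313 to 181392). It had 2435 CPM in PDB, where it ranked 17, against 3.96 in WPG and 3.85 CPM in WPGY. This was 615 times the WPG level, and the ranks in WPG and WPGY were 7664 and 7674. Model B9Z19DRAFT_1121158 (sequence 33, positions 22458 to 23765) followed with 331 CPM in PDB, against 1.62 in WPG and 1.55 in WPGY. Model B9Z19DRAFT_1100752 (sequence 89, positions 156747 to 157760) had 907 CPM in PDB, against 6.78 in WPG and 7.49 in WPGY. All 3 had moderate or high CPM in PDB and low CPM in both woody-plant media. None of them has a function in the sources used here.

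The only one of the 15 widest higher models with an annotation was B9Z19DRAFT_1070349 (sequence 1, positions 597910 to 599530), described as a parasitic phase-specific protein psp-1. It had 1953 CPM in PDB, against 29.2 in WPG and 28.3 in WPGY, a ratio of 66.9 to WPG and 69.1 to WPGY. A further model without function on the same sequence, B9Z19DRAFT_1118019 (positions 589264 to 589891), had 70.8 CPM in PDB and rested on 11 counts in WPG and 12 in WPGY. Model B9Z19DRAFT_991192 (sequence 196) had 1728 CPM in PDB, against 23.1 in WPG and 24.1 in WPGY. Models B9Z19DRAFT_1082283 and B9Z19DRAFT_844035 on sequence 97 overlap by position, so that their reads may have been shared in counting. The first had 1482 CPM in PDB, against 22.9 in WPG and 24.7 in WPGY. The second had 371 CPM in PDB, against 5.69 in WPG and 6.06 in WPGY. Both stood 5.72 or more above WPG and WPGY on the log2 scale. The other 7 of the 15 widest models had 39.4 to 321 CPM in PDB and no more than 12.6 CPM in WPG or WPGY, and none carries an annotation.

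The widest difference against PDB was that of model B9Z19DRAFT_986569 (sequence 150, positions 139331 to 139680), which has no assigned function. It had 5.14 CPM in PDB, against 2439 in WPG and 2410 CPM in WPGY, where it ranked 26. The WPG level was 474 times that of PDB. In MPY, of the same age as PDB, the model had 512 CPM. Model B9Z19DRAFT_1120143 (sequence 22, positions 8333 to 9740) had 2.53 CPM in PDB, against 568 in WPG and 548 in WPGY. Model B9Z19DRAFT_1053269 (sequence 214) had 1.92 CPM in PDB, against 216 in WPG and 217 in WPGY. These last 2 were also low in MPY, with 2.02 and 2.56 CPM.

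Model B9Z19DRAFT_973256 (sequence 55, positions 193093 to 194081) had no count in PDB, against 18.8 CPM (2182 counts) in WPG and 18.0 CPM (2259 counts) in WPGY. At a one-sided 95% limit a count of 0 allows up to 3 counts, or 0.0191 CPM, in the PDB library. Against that limit the level was at least 983-fold lower than in WPG and at least 944-fold lower than in WPGY. The counting error of WPG and WPGY is left out of these values. It had 2 counts in MPY. Over the whole comparison 7 models had at least 10 CPM in PDB and under 1 CPM in both woody-plant media, and 15 had under 1 CPM in PDB and at least 10 CPM in both of the others. The first group included B9Z19DRAFT_636335 (sequence 480), with 55.03 CPM in PDB and 5 counts in WPG and 16 in WPGY. The second included B9Z19DRAFT_895199 (sequence 72), with 0.337 CPM in PDB, against 66.8 in WPG and 60.2 in WPGY.

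**Figure D2:**
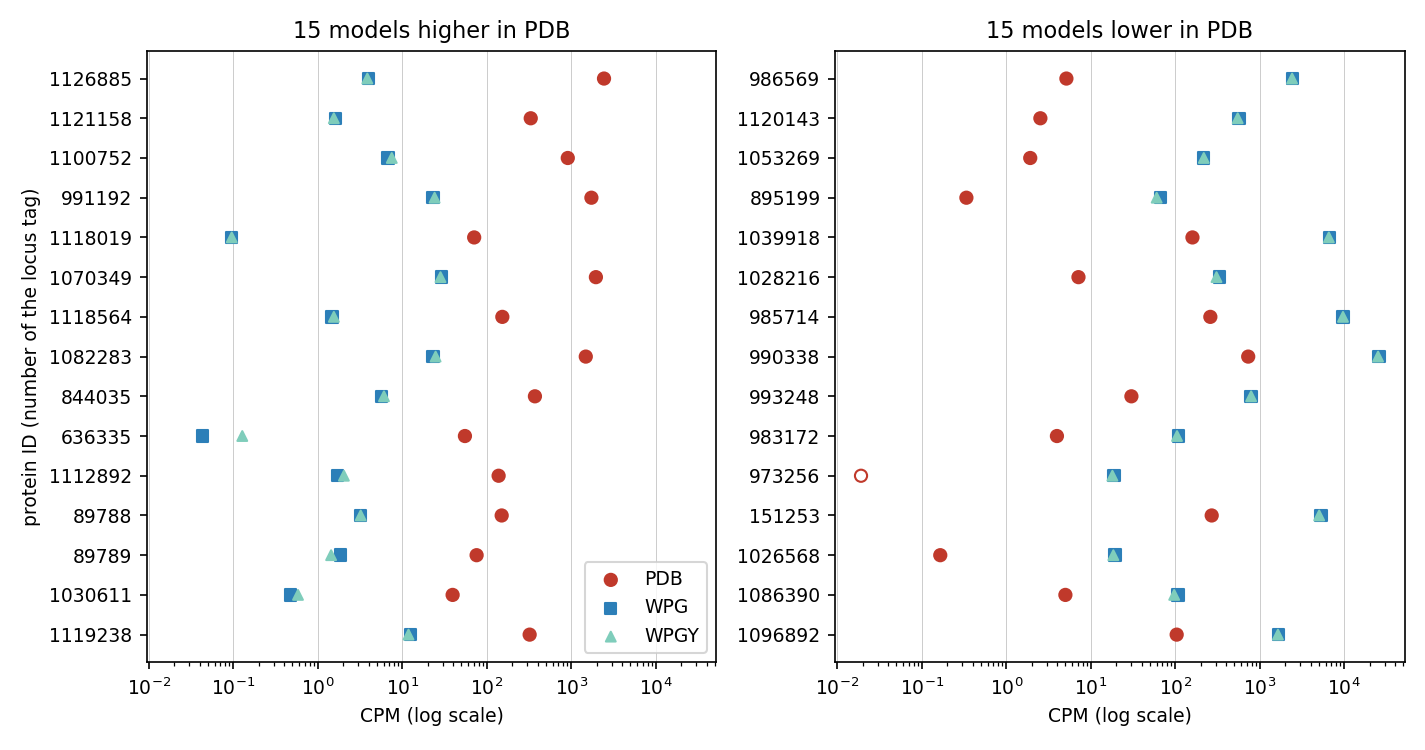
CPM on a log axis of the 15 gene models with the widest difference in each direction (at least 10 CPM in 1 of the libraries), in PDB (red circles), WPG (blue squares) and WPGY (green triangles). The WPG and WPGY symbols lie on or near each other except for model B9Z19DRAFT_636335, which had 5 counts in WPG and 16 in WPGY. The rows were chosen for their distance from PDB, and the open circle of model B9Z19DRAFT_973256 marks 0 counts in PDB, drawn at the level of 3 counts.

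The models with the most counts are described by the 10 highest of a library, ranked by CPM and so without regard to model length. Each such list was picked in 1 library and so favours that library, and nothing is read from its shares or calls. The 10 highest models of PDB took 4.72% of its counts, against 2.31% in WPG and 2.29% in WPGY for the same models. The 10 highest of WPG took 1.65% of the counts in PDB, against 8.95% in WPG and 8.83% in WPGY. Of the 10 highest of PDB, 5 were called higher in PDB, and of the 10 highest of WPG, 7 were called lower in PDB. Model B9Z19DRAFT_1041746 (sequence 34) was in both top lists, with 6507 CPM in PDB, against 6072 in WPG and 5866 in WPGY.

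The top model of PDB, B9Z19DRAFT_1067414 (sequence 230), had 8711 CPM in PDB, against 4433 in WPG and 4356 in WPGY, and at 0.97 on the log2 scale against WPG it fell just short of the limit. With median-of-ratios scaling it passed, at 1.10 against WPG and 1.11 against WPGY. Model B9Z19DRAFT_1071111 (sequence 5) passed it, with 5205 CPM in PDB, against 358 in WPG and 353 in WPGY, as did B9Z19DRAFT_1103054 (sequence 242), with 3750 CPM in PDB, against 170 in WPG and 168 in WPGY. MPY set these 2 apart: it held 6159 CPM of B9Z19DRAFT_1071111 and 6.15 CPM of B9Z19DRAFT_1103054. Models B9Z19DRAFT_90165, B9Z19DRAFT_1090643 and B9Z19DRAFT_975524 completed the called members of the PDB top list, with 3388, 3455 and 3442 CPM in PDB and 153, 229 and 1023 CPM in WPG. In the WPG top list, model B9Z19DRAFT_1004448 (sequence 376) had 1209 CPM in PDB, against 14854 in WPG and 15101 in WPGY. Model B9Z19DRAFT_985714 (sequence 141) had 260 CPM in PDB, against 9610 in WPG and 9648 in WPGY. No function is given for any of these models.

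Functional descriptions could be used for 459 models out of 827 listed on 21 assembly sequences, and for the few others that the study's text names. These 827 models are an excerpt of the genome by position. Of the 592 tested among them, 50 were higher in PDB (8.45%) and 63 lower (10.6%), close to the shares over all models. Models of the excerpt without a description were called in 24.8% of 202 cases, and those with one in 16.2% of 390.

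Chaperones bind unfolded proteins and help them fold, and small heat shock proteins are the members that hold partly unfolded proteins in solution. Of 7 chaperones, 5 were lower in PDB and none higher, where 10.3% of all tested models were lower and 7.13% higher. The list had a median log2 difference of -1.68 against WPG and -1.64 against WPGY, beside -0.06 and -0.04 over all tested models. The study had picked 2 of the 7, the Hsp20-family model B9Z19DRAFT_990338 and the chaperone B9Z19DRAFT_1039918, from the most expressed genes of these libraries, so they are not independent of the direction. Of the other 5, 3 were lower, with medians of -1.35 and -1.34.

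Model B9Z19DRAFT_990338 (sequence 186) had 729 CPM in PDB, against 25645 in WPG and 25090 in WPGY. Model B9Z19DRAFT_1039918 (sequence 18) had 160 CPM in PDB, against 6712 in WPG and 6563 in WPGY. The Hsp90 co-chaperone p23 (Sba1) model B9Z19DRAFT_982618, which binds Hsp90 in its ATP-bound state, had 276 CPM in PDB, against 1747 in WPG and 1672 in WPGY. All of these were called lower in PDB, by 2.60 or more on the log2 scale against each woody-plant medium. The chaperonin subunit CCT5 model B9Z19DRAFT_24915, part of the ring that folds actin and tubulin, had 148 CPM in PDB, against 377 in WPG and 375 in WPGY. An HSP70 model, B9Z19DRAFT_1192977, had 14.4 CPM in PDB, against 48.1 in WPG and 47.0 in WPGY. In MPY, of the same harvest day as PDB, these 5 models stood at 1139, 152, 806, 122 and 17.1 CPM, in the order given. Each was also under its WPG and WPGY levels there, so the low levels were not particular to PDB. A second HSP70 model, B9Z19DRAFT_980951, and the prefoldin subunit 5 model B9Z19DRAFT_963539 were not called, with 0.915 and 33.4 CPM in PDB, 1.75 and 37.6 in WPG and 1.17 and 33.9 CPM in WPGY. HSP70 models belong to a family of similar sequences, and how reads that fit several copies were counted is not given in the sources used here.

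Of the 14 tested members of the proteasome and ubiquitin list, which covers protein breakdown, none was higher and 1 was lower, beside 7.13% and 10.3% of all tested models. A ubiquitin-conjugating enzyme, at -1.04 against WPG and -0.99 against WPGY, and an E3 ligase, at -0.98 and -1.01, fell just short of the limit. With totals taken without the 10 highest models, the conjugating enzyme stood at -1.10 over the mean of both media. The count of lower members thus rests on the limit and the scaling. The medians of -0.09 and -0.12 give no direction, since median-of-ratios scaling turned the list median to 0.01. The lower member, B9Z19DRAFT_1047478, encodes subunit 10 of the anaphase-promoting complex, the ubiquitin ligase of mitotic exit, and had 18.2 CPM in PDB, against 128 in WPG and 128 in WPGY. It overlaps the neighbouring model B9Z19DRAFT_1082696. Among 6 cytosolic ribosomal proteins, the L24e model B9Z19DRAFT_960792 was higher, with 602 CPM in PDB, against 251 in WPG and 261 in WPGY, and the other 5 were not called. The L24e model overlaps a neighbouring model, so that reads may have been shared in counting. Of 7 mitochondrial ribosomal proteins, 1 was lower (B9Z19DRAFT_1101163, S9), with 30.9 CPM in PDB, against 65.7 in WPG and 67.1 in WPGY. This model overlaps B9Z19DRAFT_1083170, a member of the same list, and lost its call with median-of-ratios scaling, at -0.94 and -0.98, and with a pseudocount of 5. Neither histone model was called: B9Z19DRAFT_1124376 had 2655 CPM in PDB, against 2636 in WPG and 2610 in WPGY, and B9Z19DRAFT_961630 had 947 CPM in PDB, against 1077 in WPG and 1084 in WPGY.

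In central carbon metabolism the 2 glyceraldehyde-3-phosphate dehydrogenase models, which cover the NAD-binding and the catalytic domain of this glycolytic enzyme and overlap on sequence 69, were higher in PDB. The catalytic-domain model B9Z19DRAFT_1079835 had 1820 CPM in PDB, against 562 in WPG and 560 in WPGY, and B9Z19DRAFT_957843 had 539 CPM in PDB, against 164 in WPG and 160 in WPGY. Because they overlap, they are not independent results. The study had also listed B9Z19DRAFT_957843 among the most expressed genes of PDB and MPY in these libraries, so the direction was known beforehand. Phosphoglycerate kinase (B9Z19DRAFT_1077976), the next enzyme of the pathway, had 325 CPM in PDB, against 182 in WPG and 184 in WPGY. It was not called, and the study had named it for higher expression in the complex media of these libraries. Phosphofructokinase (B9Z19DRAFT_1092436) had 248 CPM in PDB, against 246 in WPG and 245 in WPGY. Aconitase (B9Z19DRAFT_1070263) and the alpha subunit of NAD-isocitrate dehydrogenase (B9Z19DRAFT_1125653), both of the citrate cycle, were not called either. In the respiratory chain an NADH dehydrogenase model, B9Z19DRAFT_963532, was higher, with 70.1 CPM in PDB, against 25.9 in WPG and 25.4 in WPGY. The alternative oxidase B9Z19DRAFT_1101071, which passes electrons to oxygen outside the cytochrome path, was not, with 716 CPM in PDB, against 989 in WPG and 985 in WPGY. In MPY the catalytic-domain and NAD-binding models stood at 2691 and 786.5 CPM. Phosphoglycerate kinase stood at 1238 CPM there and the NADH dehydrogenase model at 125. Each was above its PDB level, so these higher levels were not particular to PDB.

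Of 6 tested glycoside hydrolases, 2 were higher in PDB and 1 was lower, where 7.13% of all tested models were higher and 10.3% lower. The alpha-amylase model B9Z19DRAFT_1114851, of a family that breaks starch, had 192 CPM in PDB, against 78.4 in WPG and 79.3 in WPGY. The alpha-L-rhamnosidase model B9Z19DRAFT_982928, of a family that removes rhamnose from plant glycosides, had 554 CPM in PDB, against 160 in WPG and 163 in WPGY. The rhamnosidase was not a member of the list. Both were higher in PDB, as was a low glycosyl hydrolase family 3 model, B9Z19DRAFT_1038904, with 3.38 CPM in PDB, against 0.679 in WPG and 1.08 in WPGY. Trehalase (B9Z19DRAFT_1130405), which splits the fungal storage sugar trehalose, was lower, with 153 CPM in PDB, against 342 in WPG and 361 in WPGY. The study had named this model for its higher expression in the minimal medium of these libraries, so its direction is no independent result. The list medians of -0.01 and 0.00 give no direction, since median-of-ratios scaling turned the list median to 0.08.

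Among the membrane transporters, 3 of 6 tested major facilitator superfamily models were higher in PDB and 1 was lower, beside 7.13% and 10.3% of all tested models. Models B9Z19DRAFT_1101152 and B9Z19DRAFT_1083157, both of the ADD1-like transporter type, overlap on sequence 105 and had 41.1 and 12.8 CPM in PDB, 9.13 and 3.09 in WPG and 8.43 and 2.65 CPM in WPGY. Because they overlap, they are not separate results. Model B9Z19DRAFT_982620 had 107 CPM in PDB, against 33.2 in WPG and 32.1 in WPGY. The lower one, the sugar-transporter-family model B9Z19DRAFT_1025081, was scarce, with 1.65 CPM in PDB, against 6.21 in WPG and 4.96 in WPGY. None of 3 amino acid transporters was called. An aquaporin model (B9Z19DRAFT_1188962), of the family of water and glycerol channels, had 0.216 CPM in PDB, against 9.41 in WPG and 10.4 in WPGY.

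The nitrogen assimilation list had only 2 tested members, of which none was higher and 1 was lower, beside 7.13% and 10.3% of all tested models. Arginase and alanine aminotransferase are not on it. Arginase (B9Z19DRAFT_1082990), which turns arginine into ornithine and urea, had 792 CPM in PDB, against 204 in WPG and 199 in WPGY. Alanine aminotransferase (B9Z19DRAFT_963452), which interconverts alanine and pyruvate, had 744 CPM in PDB, against 360 in WPG and 364 in WPGY. This was just past the limit, and with totals taken without the 10 highest models it lost its call, at 0.96 and 0.95. In MPY, of the same harvest day as PDB, arginase stood at 797.5 CPM and alanine aminotransferase at 51.0. Of the list, the lower member was a model annotated with nitrate assimilation, B9Z19DRAFT_1098620, which had 2.26 CPM in PDB, against 11.9 in WPG and 11.1 in WPGY. Glutamine synthetase (B9Z19DRAFT_1070290), which fixes ammonium, was not called, with 17.3 CPM in PDB, against 22.7 in WPG and 24.2 in WPGY.

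Cytochrome P450 enzymes insert oxygen into lipids, toxins and secondary metabolites. Of 5 P450 models, 3 were tested, and of these 2 were higher in PDB and none lower, beside 7.13% and 10.3% of all tested models. Model B9Z19DRAFT_981437 had 72.1 CPM in PDB, against 7.26 in WPG and 7.52 in WPGY, and B9Z19DRAFT_1101102 had 81.6 CPM in PDB, against 16.5 in WPG and 16.8 in WPGY. In MPY they stood at 98.4 and 20.3 CPM, in the order given. The other 3 P450 models reached no more than 1.25 CPM in any of the 3 libraries. A glyoxalase and dioxygenase family model, B9Z19DRAFT_981017, had 1748 CPM in PDB, against 388 in WPG and 374 in WPGY. Of 5 tested models of the redox defence list, 1 was higher, 1 was lower and 3 were not called. The higher one, the glutathione S-transferase B9Z19DRAFT_981048, which conjugates glutathione to electrophiles, had 95.5 CPM in PDB, against 38.4 in WPG and 34.9 in WPGY. An abundant peroxidase family model of the list was not called, with 591.7 CPM in PDB, against 753.2 in WPG and 740.5 in WPGY. Of 2 scarce copper/zinc superoxide dismutase models, B9Z19DRAFT_1083259 was lower, with 0.248 CPM in PDB, against 2.04 in WPG and 1.91 in WPGY.

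Of the 13 models of secondary metabolite clusters that the study picked, 12 were tested, 3 were higher in PDB and none was lower, beside 7.13% and 10.3% of all tested models. Polyketide and non-ribosomal peptide clusters make many fungal pigments and toxins. The PKS-like neighbours B9Z19DRAFT_1121687 and B9Z19DRAFT_970716 on sequence 39 had 1169 and 1178 CPM in PDB, 381 and 446 in WPG and 429 and 478 CPM in WPGY. The NRPS-like model B9Z19DRAFT_1032817 had 10.96 CPM in PDB, against 3.35 in WPG and 4.50 in WPGY. The other PKS-like models of sequence 39, B9Z19DRAFT_1076327 and B9Z19DRAFT_970641, were not called, with 1.76 and 21.3 CPM in PDB, 1.56 and 12.6 in WPG and 1.73 and 13.3 CPM in WPGY. The list medians were 0.20 against WPG and 0.12 against WPGY. The study took these models from the cluster annotation of the genome. It had already set PKS genes in PDB apart from the low expression of the rest in these libraries. The count is therefore no independent evidence of a direction.

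The remaining models described are single called ones and stand for no group. In the KOG class of transcription none of 10 tested models was higher and 1 was lower. Of 3 members of the fatty acid breakdown list 1 was higher and none lower. Over all tested models 7.13% were higher and 10.3% lower. A bZIP transcription factor, B9Z19DRAFT_896787 (sequence 116, positions 77391 to 79915), had 2105 CPM in PDB, against 125 in WPG and 126 in WPGY, a 16.8-fold difference from both. A regulator of G protein signalling, B9Z19DRAFT_1064812, annotated after flbA, which in *Aspergillus nidulans* moves growth towards conidiation, had 883 CPM in PDB, against 218 in WPG and 226 in WPGY. On the other side a zinc-finger model, B9Z19DRAFT_19986, had 269 CPM in PDB, against 2156 in WPG and 2092 in WPGY. An enoyl-CoA hydratase family model, B9Z19DRAFT_1072550, of fatty acid and branched-chain amino acid breakdown, had 30.9 CPM in PDB, against 1.92 in WPG and 2.63 in WPGY. These models were picked from the called models with a description after their values were seen, as were the aquaporin, rhamnosidase, arginase, aminotransferase and glyoxalase models above.

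**Figure D3:**
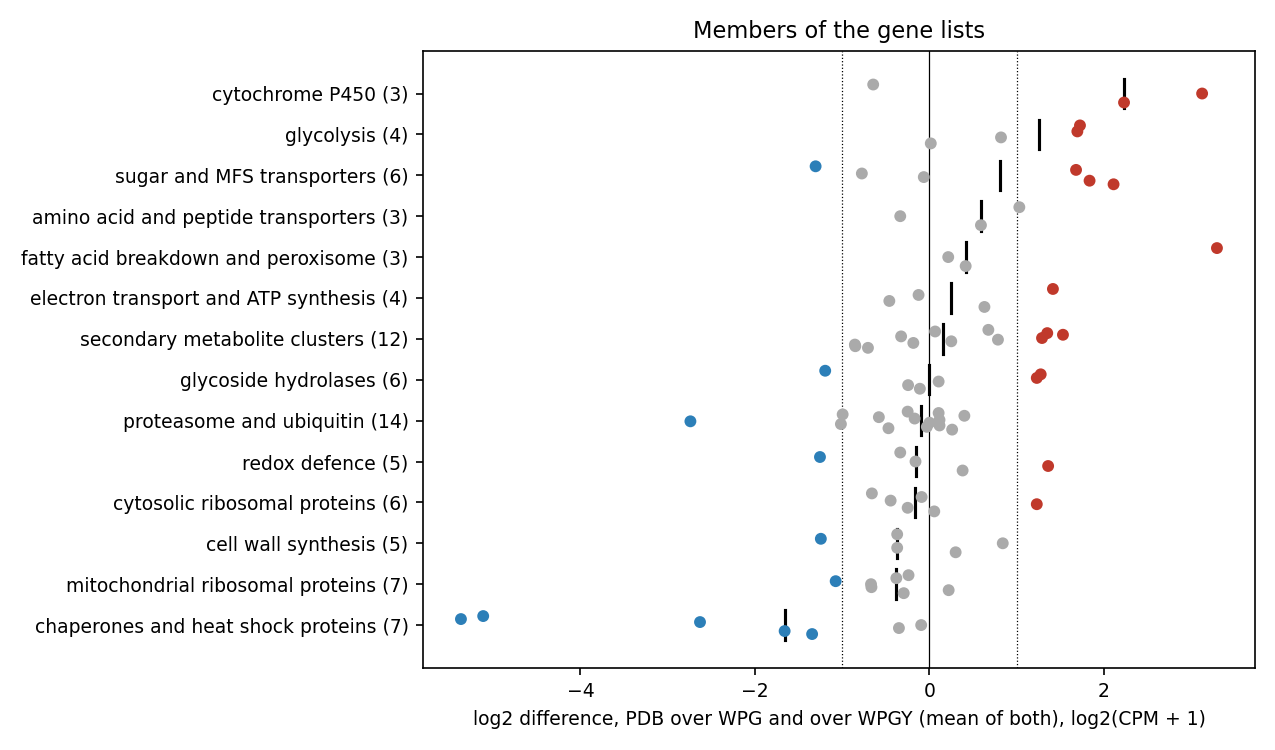
Log2 difference of each tested member of the gene lists with at least 3 tested members, PDB over WPG and over WPGY averaged, on log2(CPM + 1). Red points were called higher in PDB, blue points lower and grey points not called, black bars are list medians, dotted lines mark 2-fold, and numbers in parentheses are tested members. The chaperones lie furthest to the left, with 5 of 7 members called lower, or 3 of 5 without the models the study picked.

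When the KOG classes of the excerpt were counted, a grouping added after the values were seen, the class of secondary metabolite biosynthesis, transport and catabolism had 4 of 9 tested models higher and 1 lower, with medians of 0.62 and 0.63, beside 7.13% higher and 10.3% lower over all tested models. These included both called P450 models. RNA processing and modification had none of 16 higher and 2 lower, and the class of protein turnover and chaperones 1 of 21 higher and 3 lower, with shares of lower models close to that of all. Of the 22 tested models in the KOG class of unknown function none was called, beside 17.4% of all tested models. This class is not the same as the models without a description, of which 24.8% of 202 tested were called.

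Called models often lay side by side on the assembly. A neighbouring model called in the same direction was found for 34.7% of the 623 higher models, against 8.65% of the tested models that were not higher. For the 899 lower models the share was 38.8%, against 11.5% of the others. Without overlapping neighbours the shares were 31.6% of the higher models, against 8.47% of the others, and 37.7% of the lower models, against 11.1% of the others. A lower neighbour was found for 7.06% of the higher models, beside that 11.1% of all tested models that were not lower. Neighbours share sequence context and may share reads, so these shares are a description. Runs of 3 or more adjacent models called the same way numbered 20 among the higher models and 36 among the lower models. They held 70 of the higher models (11.2%) and 131 of the lower models (14.6%).

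The longest higher run, of 6 models on sequence 33 (positions 22458 to 73340), began with B9Z19DRAFT_1121158. Its other members included B9Z19DRAFT_969369, with 389 CPM in PDB, against 29.9 in WPG and 26.7 in WPGY, and B9Z19DRAFT_1190613, with 346 CPM in PDB, against 74.6 in WPG and 76.6 in WPGY. All 5 models of a run on sequence 371 (positions 41467 to 72703) stood 1.98 or more above both woody-plant media on the log2 scale. There B9Z19DRAFT_1135054 had 1308 CPM in PDB, against 245 in WPG and 243 in WPGY, and B9Z19DRAFT_1094954 had 965 CPM in PDB, against 127 in WPG and 133 in WPGY. In MPY these 2 stood at 91.7 and 136 CPM. The summed level of the run was 3029 CPM in PDB, against 547 in WPG and 554 in WPGY.

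The longest lower run held 8 models on sequence 44 (positions 26082 to 59097), with 1313 CPM in sum in PDB, 3532 in WPG and 3551 CPM in WPGY. On that sequence 28 of 64 tested models were lower and 1 was higher. Among sequences with a run and at least 10 tested models, sequence 168 had the largest share of lower models: 15 of its 17 tested models were lower and none was higher. Its run of 6 models (positions 132681 to 145023) had 18.9 CPM in sum in PDB, 253 in WPG and 256 CPM in WPGY, and only 3.88 CPM in MPY. Within it B9Z19DRAFT_205426 had 6.03 CPM in PDB, against 78.4 in WPG and 81.0 in WPGY. Model B9Z19DRAFT_205326 had no count in PDB, against 374 counts in WPG and 411 in WPGY.

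On sequence 22 runs of 3 and of 4 models lay close together near its start. The first (positions 8333 to 15087), which begins with B9Z19DRAFT_1120143, had 4.30 CPM in sum in PDB, 615 in WPG and 592 CPM in WPGY. The second (positions 24754 to 37542) had 13.8 CPM in PDB, against 136 in WPG and 126 in WPGY. A run of 3 abundant models on sequence 216 (positions 49071 to 61772) had 280 CPM in sum in PDB, 3543 in WPG and 3553 CPM in WPGY. Its members were B9Z19DRAFT_1089697, with 122 CPM in PDB, against 1703 in WPG and 1675 in WPGY, and B9Z19DRAFT_993248 and B9Z19DRAFT_993210, with 30.2 and 128 CPM in PDB, 785 and 1054 in WPG and 789 and 1089 CPM in WPGY. In MPY these 3 stood at 3.31, 0.229 and 26.4 CPM. No function is given for the models of these runs.

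**Figure D4:**
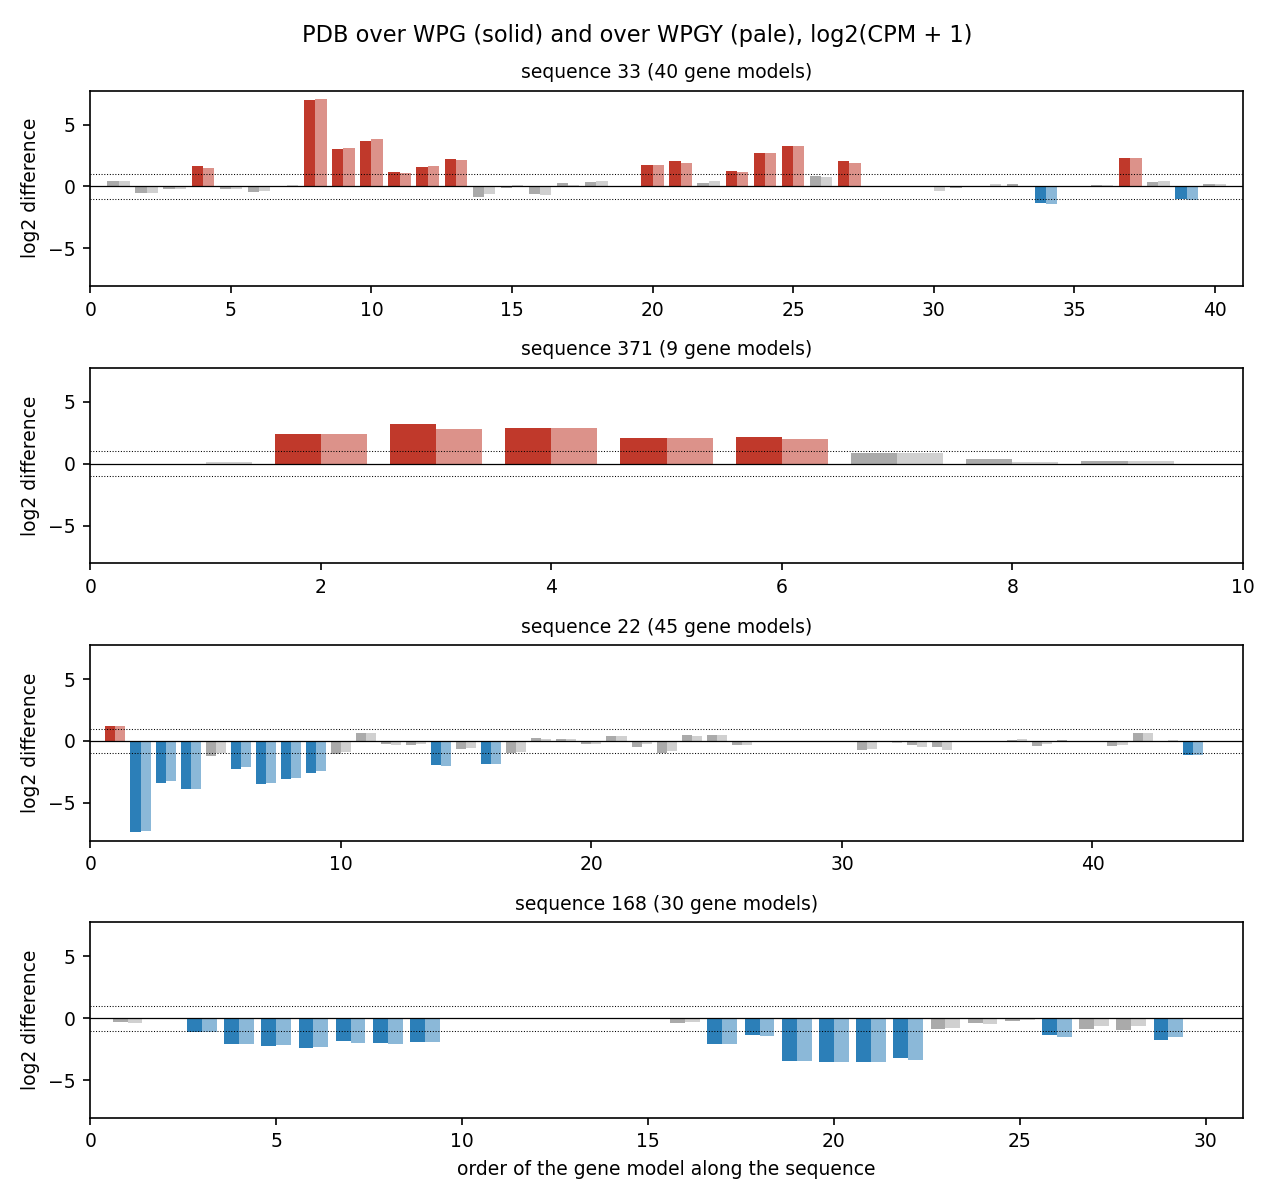
Log2 difference of every gene model in its order along 4 assembly sequences, PDB over WPG (solid) and over WPGY (pale), on log2(CPM + 1). Red bars were called higher in PDB, blue bars lower, grey bars not called or not tested, and dotted lines mark 2-fold. Sequences 33 and 371 hold runs of higher models, and sequences 22 and 168 runs of lower models.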

How the data were processed

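Total RNA was extracted from *T. borchii* SP1 mycelium, and mRNA libraries built from it were sequenced, 1 library per medium. The authors trimmed the reads with Trimmomatic after FastQC, mapped them to the Tbo3840 genome (another strain) with STAR, assigned them with featureCounts, and deposited raw counts per gene model. They used kallisto for their own normalized values, which are not used here. Strand and multiple-mapping settings are not given in the sources used here. The header of the count column gives other harvest days than the labels for WPG, WPGY and MPY; the labels' days were used.

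Counts were divided by the library total and multiplied by 1000000 (CPM). Differences were taken on log2(CPM + 1) with Python 3.11.15, numpy 2.4.6 and pandas 2.3.3, and calls needed a 2-fold difference in the same direction from WPG and from WPGY. No test was run, because each medium had 1 library. On simulated counts of 12346 models, 200 models with at least 10 CPM over WPG and WPGY pooled were changed 4-fold. The rule recovered 200 and called 0 others. The simulation held counting noise only and drew WPG and WPGY from the same levels. It thus checks that the rule was applied as stated and tells nothing about changed models under 10 CPM. Positions came from the RefSeq table of assembly Tubbor1, which matched 12345 of the 12346 models; no sequence is printed here. Named models were the 15 widest in each direction with at least 10 CPM, the 10 highest of PDB and of WPG, up to 3 members per list and direction plus the highest member, models the study names, and runs of at least 3 neighbours. The members and lists were chosen with earlier results of these data known, and list matching was refined after matches were seen. Alternatives covered scaling, pseudocount, filter, fold limit, depth, reference medium and span scaling.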

Additional observations from a re-analysis of the deposited data

Results flagged for a closer look

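For some named gene models PDB and MPY, both harvested on day 85, lay on opposite sides of WPG and WPGY by more than 2-fold. These differences were not tested, since each medium had 1 library, and the same WPG and WPGY libraries served both. Model B9Z19DRAFT_1103054, without a function, was at 4.45 on the log2 scale for PDB over WPG and at -4.58 for MPY over WPG. The DUF4449 protein B9Z19DRAFT_1064615 was at -2.13 for PDB and 4.26 for MPY, with 13.8 CPM in PDB, 1244 CPM in MPY and 63.8 CPM in WPG. The cell surface protein B9Z19DRAFT_982518 was at -1.58 for PDB and 4.06 for MPY. Model B9Z19DRAFT_892438 was at -1.57 for PDB and 2.99 for MPY. Alanine aminotransferase (B9Z19DRAFT_963452) was at 1.04 for PDB and -2.80 for MPY. The PKS-like neighbours B9Z19DRAFT_970716 and B9Z19DRAFT_1121687 were at 1.40 and 1.62 for PDB and at -1.23 and -1.04 for MPY.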

How the results depend on the processing

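The counts of 623 higher and 899 lower models moved by less than 1.5-fold with median-of-ratios scaling, totals without the 10 highest models, a pseudocount of 0.1, no filter, thinning to the smallest total, span scaling and either woody-plant medium alone. A pseudocount of 5 left 486 higher and 477 lower models, and a filter of 10 CPM left 552 higher and 557 lower models. Little or no excess of lower models remained in either. A 4-fold limit left 159 higher and 178 lower models, and a 1.5-fold limit gave 1318 higher and 1824 lower models. Median-of-ratios scaling raised the median of all models by 0.12 against WPG and 0.11 against WPGY on the log2 scale. It gave 745 higher and 763 lower models, so that little excess of lower models remained there too. It also turned 3 list medians, to 0.01 for proteasome and ubiquitin, 0.03 for histones and 0.08 for glycoside hydrolases, and a pseudocount of 0.1 turned the last to 0.04. Their medians therefore give no direction. Of the 70 called among 89 models named in the text, 2 lost the call with median-of-ratios scaling (B9Z19DRAFT_1095988 and B9Z19DRAFT_1101163), 2 with totals without the 10 highest models (B9Z19DRAFT_101545 and B9Z19DRAFT_963452), 8 with a pseudocount of 5 (among them B9Z19DRAFT_1032817), 4 with a filter of 10 CPM and 4 with span scaling. Median-of-ratios and span scaling each gained 2 calls, B9Z19DRAFT_1067414 and B9Z19DRAFT_1000018, and the only other gains were of the models given as just outside the limit. No call changed direction under these alternatives. No paired analysis was possible because each medium had 1 library and no replicate numbers were given, and no replicate could be left out. Levels under 10 CPM depend most on the pseudocount, and medium and harvest day cannot be told apart.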
